A study of Mus musculus with 8 samples.

Results

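*Erf*, *Etv1*, *Etv3*, *Etv4*, *Etv5*, *Elk1*, *Elk3* and *Elk4* encode Ets transcription factors that are substrates or targets of the kinase ERK. They were taken by name as 8 of the 45706 genes of the count table, and all 8 had enough reads to be tested. *Erf* was chosen by its read counts, which were lower after melanin-concentrating hormone (MCH) in these wells, so its difference between treatments is given here as a description without a test. RNA of hippocampal neurons from C57/Bl6 wild-type mice at embryonic day 18 was sequenced after 4 h with 1 µM MCH peptide or with water as vehicle, in 4 wells per treatment, numbered as replicates 1 to 4. The neurons came from 2 cultures with 2 wells per treatment in each, and were treated at 12 to 14 days in vitro, but the culture of each well is not given in the sources used here. Vehicle and MCH wells share a label for Alzheimer's disease as the model, beside their wild-type genotype. Wells of a culture share their cells, so p-values measure the spread between wells and not between animals.

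Ets factors bind DNA through a winged helix that reads a GGAA core. ERK, the last kinase of the Ras, Raf and MEK cascade, enters the nucleus and phosphorylates several of them. ERF and ETV3 are repressors, and phosphorylation by ERK moves ERF out of the nucleus and so lifts its repression. ETV1, ETV4 and ETV5 form the PEA3 subfamily of activators, whose genes are themselves switched on by FGF and ERK signals. ELK1, ELK3 and ELK4 are the ternary complex factors, which sit with serum response factor on serum response elements, and ELK1 phosphorylated by ERK is a classic activator of *Fos* and *Egr1* in stimulated neurons.

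The libraries held 26083936 to 31844861 reads assigned to genes, so that 3 reads correspond to at most 0.115 CPM (reads of the gene scaled to library size). The neuron markers summed to 7294 to 8274 CPM in every well, with *Rbfox3* at 130.2 CPM or more. Wells of replicates 3 and 4 stood apart from those of replicates 1 and 2 on the first principal component (59.8% of the variance once treatment means were removed), and the replicate pairs 1 with 2 and 3 with 4 are called sides A and B below. These sides were read from the counts, and 4422 of 14962 genes (29.6%) did not overlap between them. The 7 astrocyte markers summed to 1023 to 1126 CPM on side A and to 2106 to 2396 CPM on side B, and each of them had a higher mean on side B. Oligodendrocyte lineage markers summed to 57.28 to 67.93 against 126 to 147.5 CPM, mostly through *Olig1* (side means 24.27 and 92.54 CPM) and less through *Mbp* (33.59 and 36.39 CPM) or *Pdgfra* (1.6 and 1.66 CPM), with *Sox10* at 0 in every well. Fibroblast and vessel markers summed to 16.52 to 21.82 against 50.06 to 53.94 CPM, with *Cldn5* at 0 on side A. Microglia markers stayed at or below 5.547 CPM in sum, with *P2ry12* and *Tmem119* at 0 in some wells. The neuron markers summed to 7918 to 8274 CPM on side A and to 7294 to 7432 CPM on side B. Inhibitory neuron markers summed to 2586 to 2829 CPM on side A and to 2088 to 2347 CPM on side B. Vehicle and MCH wells overlapped in the sum of each of these 6 marker lists over both sides. On side A the astrocyte sums were 1126 and 1023 CPM in vehicle and 1123 and 1102 CPM in MCH wells, and on side B 2270 and 2106 against 2396 and 2334 CPM, so that MCH wells were higher on side B. Of the astrocyte markers *Slc1a2* rose with the block by replicate number (edgeR adjusted p = 0.0353), and not with the block by side (0.115). Of the inhibitory neuron markers all 5 had log2 fold changes below 0, and *Gad1* fell with the block by side (edgeR adjusted p = 0.0267) and by replicate number (0.0349). The part of these markers in the blocked calls of the Ets genes was not tested. In bulk RNA, fewer cells of a type and less RNA per cell cannot be told apart.

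Promoter windows of 300 bases, from 250 bases before to 50 bases after the RefSeq start on GRCm38.p6, were matched for 7 of the 8 genes and came to 11 windows. The windows of the 3 genes with the lowest fold changes are shown with that of *Elk4*, a gene without such a change, so that their Ets and cAMP response element letters can be set side by side. Of the windows of *Etv5*, the one holding the annotated 5′ end of its main transcript is shown. Capitals mark TGACG, the short form of the cAMP response element read by CREB, and the Ets core GGAA or its reverse complement TTCC, on either strand.
Erf, chr7:25250709-25251008, minus strand: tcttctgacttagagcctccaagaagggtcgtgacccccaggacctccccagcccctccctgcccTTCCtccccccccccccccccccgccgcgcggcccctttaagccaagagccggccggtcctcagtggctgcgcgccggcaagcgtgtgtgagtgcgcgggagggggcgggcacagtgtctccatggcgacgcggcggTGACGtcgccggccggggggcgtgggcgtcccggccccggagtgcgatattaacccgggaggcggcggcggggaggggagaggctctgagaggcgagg
Etv3, chr3:87525328-87525627, plus strand: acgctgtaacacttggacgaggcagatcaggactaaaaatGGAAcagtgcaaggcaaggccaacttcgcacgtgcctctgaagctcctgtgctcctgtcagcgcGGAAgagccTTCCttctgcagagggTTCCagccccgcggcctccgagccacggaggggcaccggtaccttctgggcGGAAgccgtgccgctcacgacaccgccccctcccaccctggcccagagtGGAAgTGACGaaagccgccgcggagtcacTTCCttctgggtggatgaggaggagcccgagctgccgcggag
Etv5, chr16:22439521-22439820, minus strand: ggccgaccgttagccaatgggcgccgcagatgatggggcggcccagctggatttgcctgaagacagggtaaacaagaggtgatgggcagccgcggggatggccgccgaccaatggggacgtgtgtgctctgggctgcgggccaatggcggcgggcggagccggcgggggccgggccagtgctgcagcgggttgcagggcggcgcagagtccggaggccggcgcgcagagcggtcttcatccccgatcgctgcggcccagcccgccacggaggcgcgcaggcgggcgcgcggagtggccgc
Elk4, chr1:132007370-132007669, plus strand: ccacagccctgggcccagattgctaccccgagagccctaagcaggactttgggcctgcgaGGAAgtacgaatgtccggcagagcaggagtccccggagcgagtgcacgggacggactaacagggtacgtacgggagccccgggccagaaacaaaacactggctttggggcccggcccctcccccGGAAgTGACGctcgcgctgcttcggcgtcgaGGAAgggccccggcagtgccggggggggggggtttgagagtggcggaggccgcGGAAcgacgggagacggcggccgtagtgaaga
The *Erf* window held a single Ets core, at position -185 counted from the start, and TGACG at position -48. In *Etv3* there were 7 Ets cores and TGACG at position -16. The *Etv5* window shown held neither, while the other *Etv5* window held 6 Ets cores. *Elk4* held 4 Ets cores and TGACG at position -61, and its core at position -66 was part of the longer form CCGGAAG. This window of *Elk4* is the one at the annotated 5′ end of its coding model Elk4-202, and its other windows held 2 and 6 Ets cores without TGACG or CCGGAAG. The longer form occurred in 8.86% of all windows. The letters TGACG occurred in 3 of the 11 windows and in 20.8% of all 32851 windows, and GGAA in 10 of the 11 and in 96% of all. The full palindrome TGACGTCA, the AP-1 site TGANTCA, the Capicua octamers and the CArG box of serum response factor had no match in the 11 windows, against 1.79%, 7.81%, 3.84% and 1.63% of all windows. A match describes these letters and is not evidence of binding.

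By TPM, a level scaled by transcript length that allows genes to be compared, *Etv5* was the most abundant of the 8. Transcripts under 1000 bases hold a few reads each but add much to TPM, so levels are given over transcripts of at least 1000 bases, a choice made after the data were seen. On this scale, over all 8 wells, *Etv5* stood at 85.6 ± 5.35 TPM (SD), *Erf* at 28.7 ± 4.46 TPM and *Elk1* at 22.3 ± 1.06 TPM. *Etv1* followed at 15 ± 1.8 TPM, *Etv3* at 12.9 ± 1.62 TPM and *Elk4* at 9.61 ± 0.689 TPM. Least abundant were *Etv4* at 3.97 ± 1.94 TPM and *Elk3* at 3.81 ± 1.67 TPM. Between neighbours in this order, the wells of *Erf* and *Elk1*, of *Etv1* and *Etv3* and of *Etv4* and *Elk3* overlapped, and the other neighbours did not. With the shorter transcripts included, *Elk4* stood at 12.5 TPM and *Etv4* at 10.2 TPM.

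Among the repressors, *Erf* was lower in every MCH well than in every vehicle well. The vehicle wells held 62, 68.6, 64.3 and 61.6 CPM in replicates 1 to 4, and the MCH wells 48.7, 48.5, 50.4 and 46.3 CPM. The means were 64.1 ± 3.2 CPM and 48.5 ± 1.69 CPM (SD, n = 4), which is a log2 fold change of -0.40 (SE 0.046). This contrast chose *Erf*, so the separation carries no test. The log2 difference was -0.42 on side A and -0.38 on side B, and ran from -0.50 in replicate 2 to -0.35 in replicate 1 when wells of the same number were compared. *Erf* levels did not follow the sides, with means of 56.95 CPM on side A and 55.64 CPM on side B. The gene (ENSMUSG00000040857) lies on the minus strand at chr7:25242561-25250761 of GRCm38.

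Nearly all *Erf* reads were assigned to Erf-201, a protein-coding transcript of 4 exons and 3505 bases. It stood at 32.65 ± 1.7 TPM in vehicle wells, from 31.12 to 34.71, and at 24.67 ± 1.03 TPM in MCH wells, from 23.21 to 25.63. The ranges of Erf-201 in the treatments did not overlap. Erf-202, a shorter protein-coding model of 690 bases, held a mean of 28.84 reads in vehicle wells and of 46.25 reads in MCH wells, with overlapping ranges of 2.123 to 6.814 and of 4.268 to 9.202 TPM. Although its reads were few, its short length gave it 15.35% of the gene's TPM. The summed TPM of *Erf* lay less far apart, at 36.77 ± 1.26 against 30.95 ± 1.71, and a fit with the average transcript length as an offset gave a log2 fold change of -0.27.

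**Figure D1:**
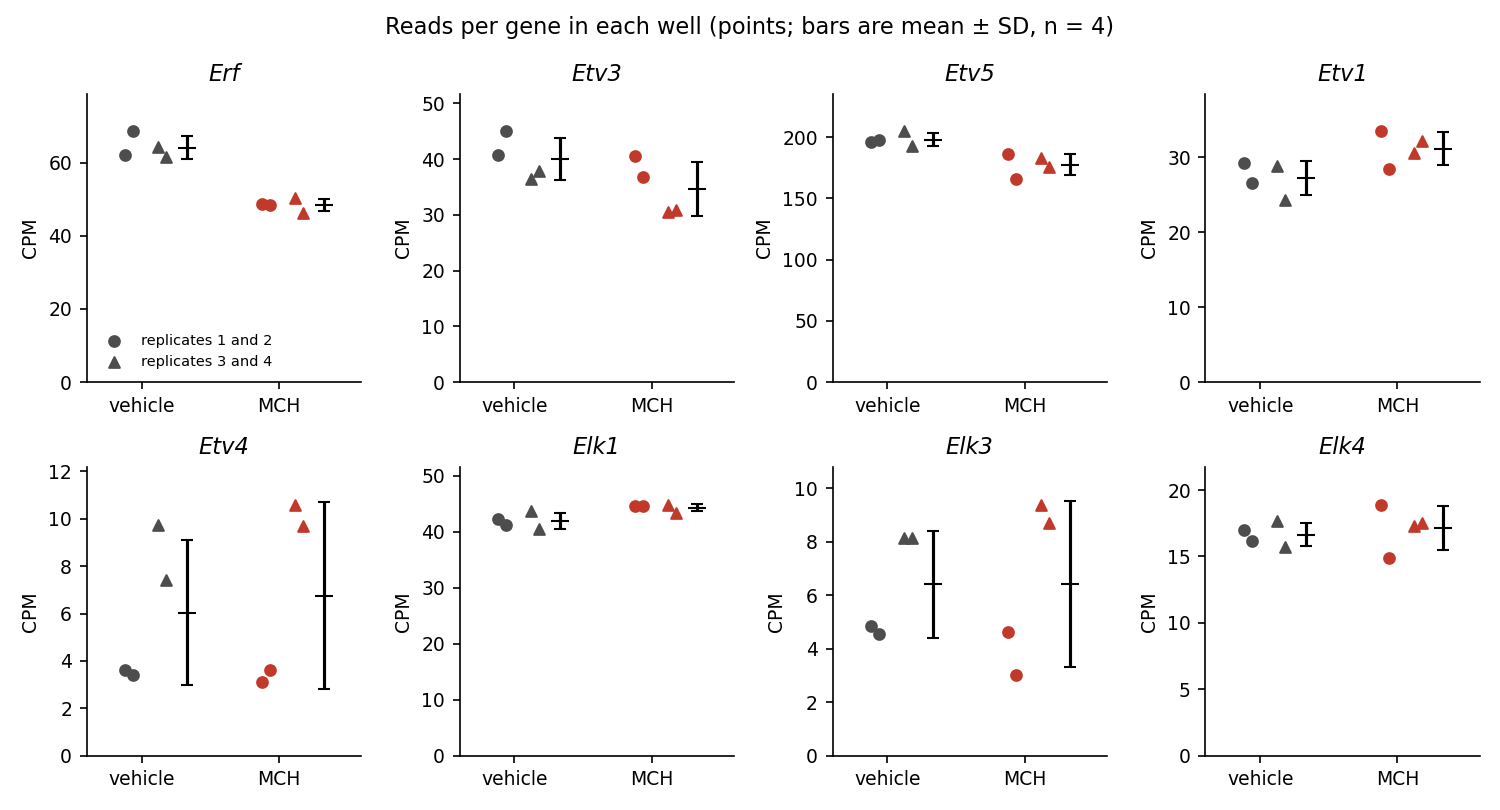
Reads per gene in CPM (y axes from 0) for the 8 Ets genes in each vehicle (grey) and MCH (red) well, with circles for replicates 1 and 2, triangles for replicates 3 and 4 and bars for the mean ± SD of 4 wells. *Erf* and *Etv5* were lower in all 4 MCH wells than in all vehicle wells, whereas *Etv4* and *Elk3* split by replicate number.

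*Etv3*, which like *Erf* encodes a repressor, was read in vehicle wells at 40.7, 45, 36.4 and 37.9 CPM and in MCH wells at 40.5, 36.8, 30.5 and 30.8 CPM. The treatments overlapped, and within both treatments replicates 1 and 2 were higher than replicates 3 and 4. Its log2 fold change was -0.21 (SE 0.10), with an adjusted p of 0.642 in edgeR's quasi-likelihood test over all genes. When wells of the same number were compared, MCH was lower in 4 of 4, by log2 differences from -0.0068 in replicate 1 to -0.30 in replicate 4. Wells of the same number were no more alike than other wells of their side, so such comparisons are a description. With a block by side *Etv3* fell, at a log2 fold change of -0.21 (SE 0.050, edgeR adjusted p = 0.0174), and with a block by replicate number the edgeR adjusted p was 0.0311. Side means were 40.74 and 33.89 CPM. Etv3-205 held 83.12% of the gene's TPM, and the share of this transcript was 78.6 ± 5.29% in vehicle wells and 88.1 ± 7.17% in MCH wells (exact permutation test, n = 4, adjusted p = 0.5). Etv3-202, the second model, went from a mean of 174.7 to 63.76 reads, with an edgeR adjusted p of 1 over all transcripts.

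Across all genes, 35 of 14962 (0.234%) were differentially expressed (DE, edgeR adjusted p under 0.05), with 31 lower (0.207%) and 4 higher (0.0267%). Of the 7 Ets genes other than *Erf*, 0 were DE, while 2 of them (*Etv1* and *Etv5*) had an unadjusted p under 0.05, as did 1272 of all genes. DESeq2 and limma voom also called 0 of the 7. With the block by side, 668 genes were DE (4.46%; 391 lower, 2.61%), and with the block by replicate number 596 (3.98%; 337 lower, 2.25%). In both of these fits 2 of the 7 were DE, *Etv3* and *Etv5*, and both were lower. Wells of the treatments did not overlap in 902 genes (6.03%), 443 of them lower after MCH (2.96%), and of the 7 Ets genes this held for *Etv5*.

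The PEA3 activators did not move together. *Etv5*, the most highly expressed of them, was read at 196, 198, 205 and 193 CPM in vehicle wells and at 186, 166, 183 and 176 CPM in MCH wells. Every MCH well lay below every vehicle well, and replicate 2 after MCH was the lowest. The means were 198.1 ± 4.96 and 177.6 ± 8.7 CPM (SD, n = 4), with a log2 fold change of -0.16 (SE 0.042, edgeR adjusted p = 0.272). With the block by side *Etv5* fell (edgeR adjusted p = 0.01), as it did with the block by replicate number (edgeR adjusted p = 0.00937). Its log2 difference was -0.17 on side A and -0.15 on side B. Almost the whole of its level came from Etv5-201 (99.25% of TPM), a coding transcript of 13 exons.

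*Etv1* had its higher mean in MCH wells. It was read at 29.2, 26.6, 28.9 and 24.3 CPM in vehicle wells and at 33.5, 28.4, 30.6 and 32.2 CPM in MCH wells. The treatments overlapped through replicate 2 after MCH. As a description, MCH was higher in 4 of 4 comparisons of the same number. Its log2 fold change was 0.20 (SE 0.074, edgeR adjusted p = 0.492), and neither block brought it past the threshold (edgeR adjusted p = 0.0991 by side and 0.067 by replicate number). Etv1-201 held 64.17% of its TPM, Etv1-203 held 23.99% and Etv1-211 held 5.18%.

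*Etv4* separated the sides and not the treatments. Vehicle wells held 3.6, 3.41, 9.73 and 7.43 CPM and MCH wells 3.1, 3.6, 10.6 and 9.69 CPM in replicates 1 to 4. Every well of side B lay above every well of side A, with means of 9.35 ± 1.34 and 3.43 ± 0.238 CPM and a log2 difference of 1.44. An absolute log2 difference between sides above 1 was found for 860 genes (5.75%). The log2 fold change after MCH was 0.15 with an SE of 0.52 (edgeR adjusted p = 1), and with the block by side it was 0.12 (SE 0.11, edgeR adjusted p = 0.624). *Etv4* had 93 to 305 reads per well. Its TPM was spread over 7 models above 5%, from Etv4-201 with 19.25% to Etv4-206 with 5.49%. By reads, Etv4-201 and Etv4-202 had the highest means, at 80.03 and 43.2 in vehicle wells. Etv4-211, of 400 bases, took 18.45% of TPM with a mean of 2.708 reads there. The transcript make-up of *Etv4* is therefore poorly resolved.

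**Figure D2:**
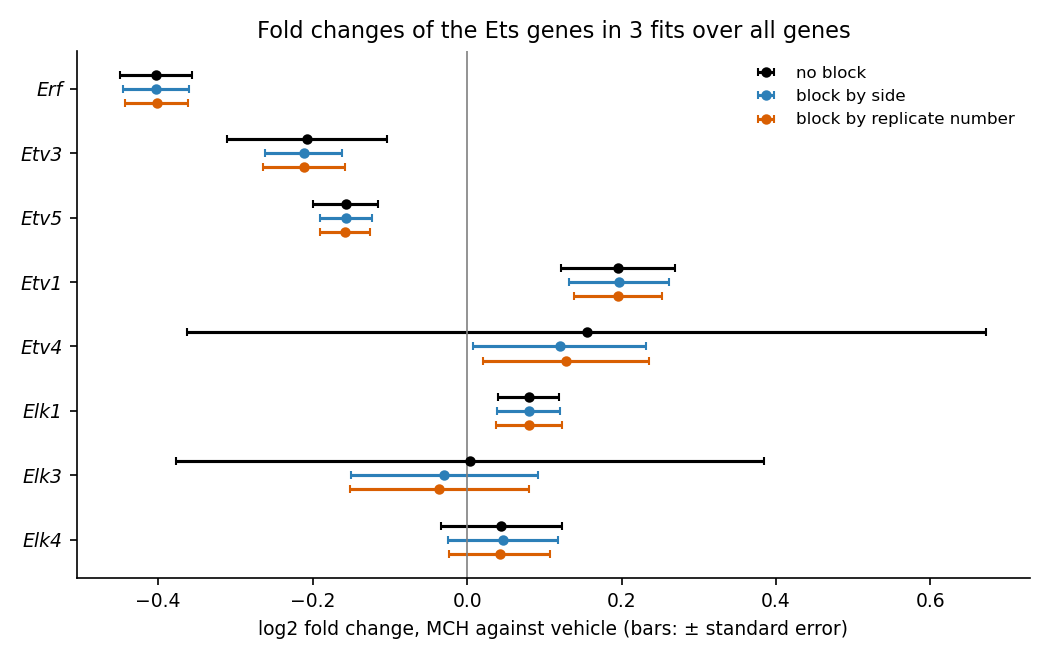
Log2 fold change of each Ets gene after MCH against vehicle (x axis; points with standard errors) in the fits over all genes without a block (black), with a block by side (blue) and with a block by replicate number (orange). The standard error of *Etv4* was 0.52 without a block and 0.11 with the block by side, and that of *Etv3* 0.10 and 0.050.

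None of the ternary complex factors was DE in any fit run. *Elk1* was read at 42.3, 41.1, 43.7 and 40.5 CPM in vehicle wells and at 44.5, 44.5, 44.8 and 43.3 CPM in MCH wells. The treatments overlapped through vehicle replicate 3 and MCH replicate 4. As a description, MCH was higher in 4 of 4 comparisons of the same number. The log2 fold change of *Elk1* was 0.08 (SE 0.039, edgeR adjusted p = 0.635), and its side means were 43.09 and 43.08 CPM. Elk1-201 held 99.34% of its TPM.

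*Elk4* was read at 14.9 to 18.9 CPM over the 8 wells, with a log2 fold change of 0.04 (SE 0.079, edgeR adjusted p = 0.979). Its leading model by TPM was Elk4-207, annotated as a target of nonsense-mediated decay, with 39.64% of TPM, next to the coding Elk4-202 with 36.76%. By reads the order of these models was the other way, with vehicle means of 152.6 for Elk4-207 and 296.4 for Elk4-202. Elk4-205, of 305 bases, took 21.19% of TPM with a mean of 3.48 reads in vehicle wells.

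*Elk3* resembled *Etv4* in following the sides. It was read at 4.84, 4.53, 8.14 and 8.14 CPM in vehicle wells and at 4.63, 3, 9.38 and 8.71 CPM in MCH wells. Side means were 4.25 ± 0.842 and 8.59 ± 0.588 CPM without overlap, a log2 difference of 1.04. The MCH well of replicate 2 was the lowest, with 80 reads. The log2 fold change after MCH was 0.00 with an SE of 0.38 (edgeR adjusted p = 1). The TPM of *Elk3* fell on Elk3-201 (59.41%), the decay model Elk3-202 (22.57%) and Elk3-204 (18.03%). By reads Elk3-201 led further, with vehicle means of 143.3 against 20.48 and 11.18.

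**Figure D3:**
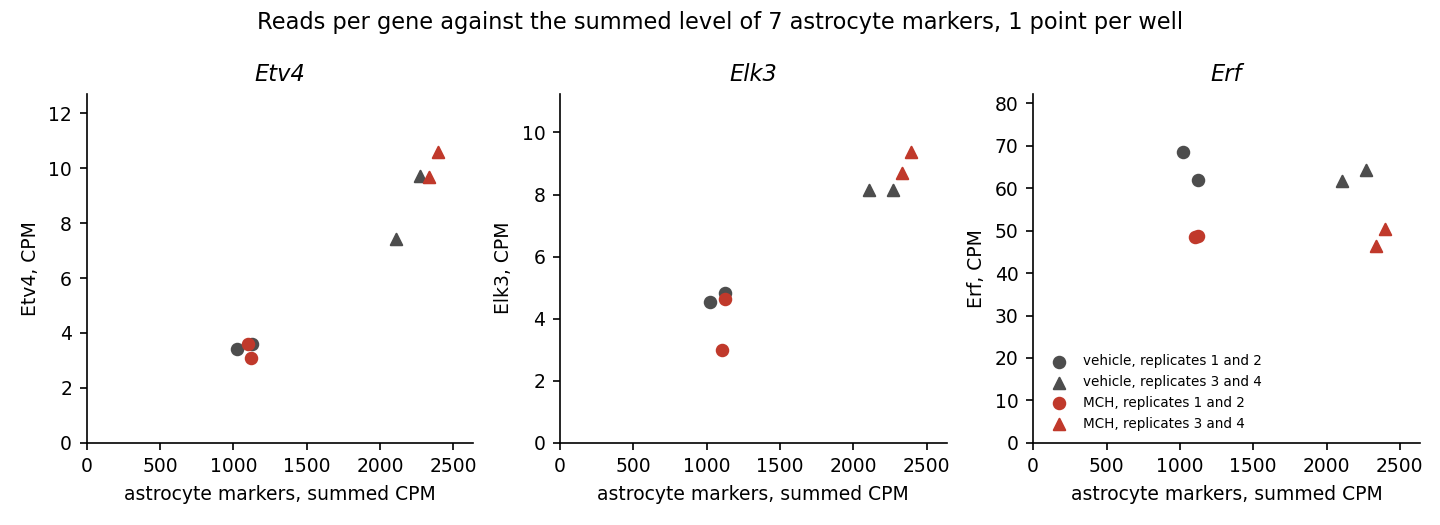
Reads of *Etv4*, *Elk3* and *Erf* (y axes, CPM) against the summed CPM of 7 astrocyte markers (x axis), with 1 point per well. For *Etv4* and *Elk3* the wells of replicates 3 and 4 lay above those of replicates 1 and 2 and at a marker sum of 2106 CPM or more, whereas *Erf* was split by treatment at either marker level.

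The well-to-well pattern of *Etv4* and *Elk3* was alike (Pearson r of log2 CPM 0.91 over 8 wells, which share the sides). It ran with the sums of the astrocyte, oligodendrocyte lineage, and fibroblast and vessel markers given above. Microglia marker sums overlapped between the sides. *Fgfr3*, a receptor upstream of the PEA3 genes and an astrocyte-enriched gene, had side means of 5.62 and 21.2 CPM. The part of the astrocyte, oligodendrocyte lineage and fibroblast markers in the levels of *Etv4* and *Elk3* was not tested. Whether the effect of MCH differed between the sides was tested as an interaction. Of the 7 Ets genes other than *Erf*, 0 differed (edgeR, 0 with an unadjusted p under 0.05), against 4 of 14962 genes (0.0267%). The lowest edgeR adjusted p was 0.698, for *Elk3*, whose log2 effect was -0.33 on side A and 0.15 on side B.

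Over all annotated transcripts, 0 of 33527 were DE in edgeR and 1476 had an unadjusted p under 0.05, Etv5-201 among them (log2 fold change -0.16, adjusted p = 0.89). With the block by side 6 transcripts were DE (0.0179%), none of them from the 7 genes. The share of TPM on the main transcript was compared between treatments for the 7 genes by a two-sided exact permutation test over 70 assignments, which cannot give a p below 0.0286. After adjustment over 7 genes a single gene at that p would have an adjusted p of 0.2 and could not pass, so the test says little of single genes. The adjusted p ran from 0.5 for *Etv3* and *Elk1* to 1 for *Etv5*. For Elk1-201 the shares were 99.6 ± 0.369% and 99.1 ± 0.439%. The shares of Etv4-201 varied too widely for a comparison, at 24.7 ± 20.1% and 15.6 ± 14.9% (SD, n = 4). Elk3-201 stood at 66.8 ± 23.8% and 60.1 ± 12.1%.

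**Figure D4:**
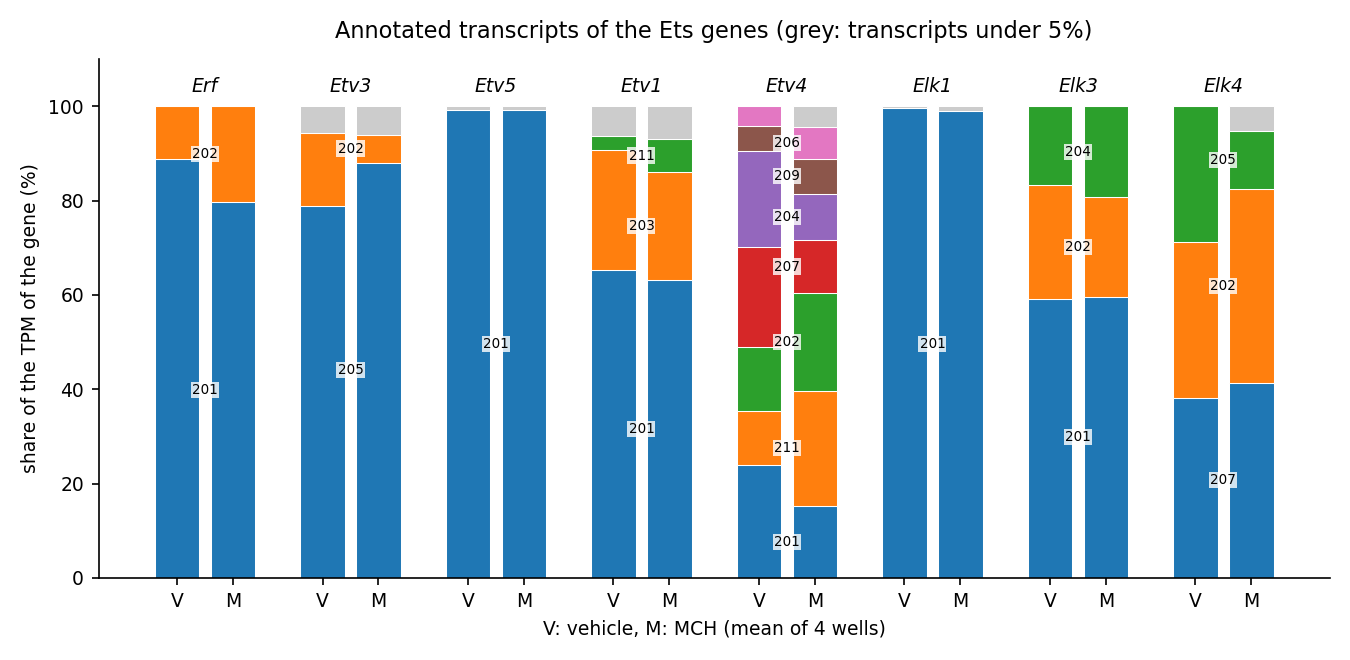
Share of the gene's TPM (y axis, %) taken by each annotated transcript, numbered as in the annotation, in the mean of 4 vehicle (V) and 4 MCH (M) wells, with transcripts under 5% in grey. *Etv5* and *Elk1* rested on a single model with 99.25% and 99.34%, whereas *Etv4* was spread over 7.

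Of the other 19 Ets family genes, 7 had enough reads to be tested, and 0 of these were DE (edgeR). Their log2 fold changes ran from -0.18 for *Ets2* to 0.23 for *Gabpa*, with a median of 0.03 beside -0.0027 for all genes tested. *Ets2*, an activator that ERK phosphorylates directly, was read at 90.69 to 102.3 CPM in vehicle wells and at 82.18 to 88.9 CPM in MCH wells (edgeR adjusted p = 0.27). With the block by side it fell (edgeR adjusted p = 0.00233). *Gabpa*, the DNA-binding subunit of GA-binding protein, was read at 21.67 to 22.74 CPM in vehicle wells and at 23.42 to 27.99 CPM in MCH wells (edgeR adjusted p = 0.308). It rose in the fit with the block by side (edgeR adjusted p = 0.0187), but its log2 fold change was -0.0078 once the average transcript length was an offset.

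The kinase cascade above these factors held 0 of 36 genes DE (edgeR) and a median log2 fold change of -0.01. *Mapk3*, which encodes ERK1, was read at 181.4 ± 10.8 and 184.9 ± 9.99 CPM (SD, n = 4, log2 fold change 0.03, edgeR adjusted p = 0.987). The lowest value was that of the ribosomal S6 kinase gene *Rps6ka2* (-0.19, edgeR adjusted p = 0.617). It passed with the block by side (0.00417) and by replicate number (0.00828). The highest was that of the scaffold gene *Ksr2* (0.20, edgeR adjusted p = 0.476). *Ksr2* passed with the block by replicate number (0.0197) and not with the block by side (0.272). Blocking by side made 5 of the 36 DE, 3 lower and 2 higher, beside 4.46% of all genes, and with the block by replicate number 6 were, 3 in each direction, beside 3.98%. These RNA levels say nothing of ERK activity, which was not measured.

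Genes known as outputs and feedback inhibitors of ERK were lower more often than higher, with 14 of 16 log2 fold changes below 0, beside 7637 of 14962 over all genes tested. Their median was -0.17, beside -0.0027 over all genes tested. Of the 16, 2 were DE and lower (0.207% of all genes were), both of them Sprouty genes, which encode inhibitors of receptor tyrosine kinase signals. *Spry2* fell from 98.25 ± 7.39 to 67.93 ± 3.57 CPM (log2 fold change -0.53, SE 0.060, edgeR adjusted p = 0.0135), and this call was lost without vehicle replicate 1 (edgeR adjusted p = 0.0745), vehicle replicate 4 (0.05) or MCH replicate 4 (0.0668). *Spry4* fell from 69.71 ± 2.94 to 55.3 ± 2.56 CPM (log2 fold change -0.33, SE 0.047, edgeR adjusted p = 0.0281). The call for *Spry4* was lost in 6 of the 8 fits that left out a well, those without replicates 1, 2 and 4 of vehicle and 2, 3 and 4 of MCH (edgeR adjusted p from 0.119 to 0.166), and with the length offset (0.141). In 9 of the 16 genes every MCH well lay below every vehicle well, against 2.96% of all genes. With the block by side 8 were DE and lower (2.61% of all genes) and 1 was DE and higher (1.85%).

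Serum response element genes, the class on which the ternary complex factors act, had log2 fold changes below 0 in 12 of 12, with a median of -0.36. Over all genes tested 7637 of 14962 were below 0, with a median of -0.0027. DE and lower were 3 of the 12: *Fos* from 62.67 ± 7.09 to 33.36 ± 2.36 CPM (log2 fold change -0.91, edgeR adjusted p = 0.00492), *Fosb* from 24.02 ± 1.53 to 13.84 ± 0.815 CPM (-0.80, edgeR adjusted p = 0.00492) and *Arc* from 56.23 ± 1.86 to 37.32 ± 2.45 CPM (-0.59, edgeR adjusted p = 0.00492). *Fos* and *Fosb* encode subunits of AP-1, and *Arc* a synaptic protein made on activity. Lower DE genes made up 0.207% of all genes. MCH wells lay below vehicle wells in 6 of the 12, against 2.96% of all genes. A block by side gave 6 DE and lower genes (2.61% of all genes), and a block by replicate number 7 (2.25%). The lowest value of the list was that of *Nr4a1*, an orphan nuclear receptor gene named after its values were seen (-1.05, edgeR adjusted p = 0.126, and 2.05e-07 with the block by side). *Egr1* was not DE, with overlapping treatments (-0.17, edgeR adjusted p = 0.5445). It did not pass with the block by side (0.0848) and passed with the block by replicate number (0.0234). Of serum response factor and its coactivators 0 of 6 tested were DE (edgeR), with *Srf* itself at 50.65 ± 1.88 and 49.13 ± 1.6 CPM (log2 fold change -0.04, edgeR adjusted p = 0.878) and the acetyltransferase gene *Ep300* the highest (0.18, edgeR adjusted p = 0.587). Several genes of these lists were already known from these data to be lower after MCH, so the counts are no independent evidence of a direction.

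**Figure D5:**
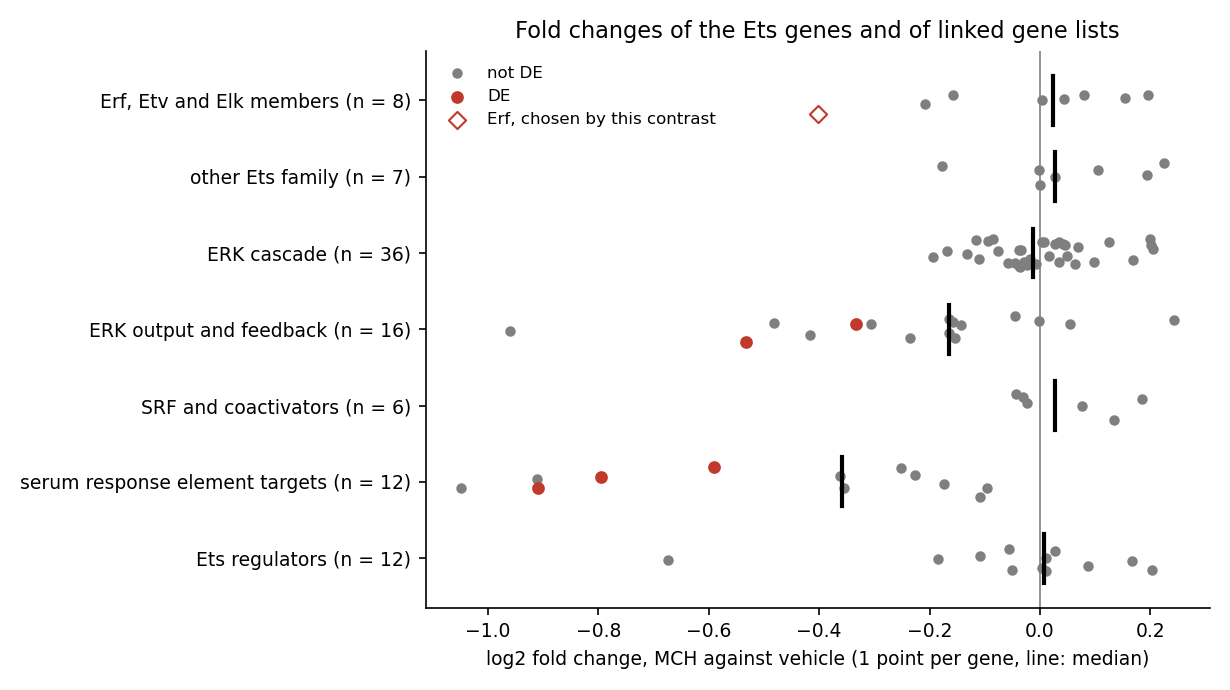
Log2 fold change after MCH against vehicle (x axis) of each tested gene in 7 lists, with DE genes in red, *Erf* as an open diamond and a line at each median. The medians of the feedback and serum response element lists lay at -0.17 and -0.36, and those of the other lists between -0.01 and 0.03.

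Among 12 genes that regulate Ets factors, such as the repressor gene *Cic* and the ubiquitin ligase genes *Cop1* and *Det1* that degrade PEA3 proteins, 0 were DE (edgeR). *Trib1*, a pseudokinase gene whose product brings substrates to COP1, had the lowest value, with 16.54, 15.98, 20.02 and 20.62 CPM in vehicle wells and 10.45, 7.846, 14.39 and 13.13 CPM in MCH wells. All MCH wells lay below all vehicle wells, with a log2 fold change of -0.67 (SE 0.18, edgeR adjusted p = 0.296). *Trib1* fell with the block by side (edgeR adjusted p = 3.55e-05) and in DESeq2 (adjusted p = 0.0208). With the block by side 2 of the 12 were DE and lower (2.61% of all genes), and likewise 2 with the block by replicate number (2.25%). Besides *Trib1* this was *Trib2* (edgeR adjusted p = 0.0269 by side and 0.0258 by replicate number). *Det1* had the highest value (log2 fold change 0.20, edgeR adjusted p = 0.791).

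By the Pearson r of log2 CPM over the 8 wells, the tested genes most like *Erf* were *Rasl11a* (0.98), *Fosb* (0.97), *Phf21b* (0.97), *Lbh* (0.97) and *Spry2* (0.97). The most opposed were *Crebl2* (-0.97), *Ncapd3* (-0.97) and *Sv2b* (-0.97). All 5 of the first had a lower mean in MCH wells, as *Rasl11a* at 21.52 and 10.5 CPM, and the last 3 a higher one, as *Sv2b* at 836.4 and 916.2 CPM. The wells share 2 treatments, and with the treatment means removed r was between 0.51 and 0.68 for the first set and between -0.77 and -0.61 for the second. Both sets were picked by their r over these same 8 wells, so these values are a description without a test. Among the Ets genes themselves, the r with *Erf* was 0.86 for *Etv5* and 0.64 for *Etv3*, and with treatment means removed 0.30 and 0.36.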

How the data were processed

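The reads of 8 polyA-selected, stranded libraries had been mapped and quantified by the authors with the nf-core/rnaseq pipeline (version 3.0) and Salmon on GRCm38. The deposited gene table holds estimated counts, not scaled, of which 9.13% of values are not whole, and the deposited transcript tables hold estimated counts and TPM per well. Names came from GENCODE release M21 (108214 of 109617 transcripts matched). Counts were rounded, scaled by TMM, filtered with filterByExpr (minimum count 10, total 15) and tested with edgeR 4.0.16 (quasi-likelihood, Benjamini-Hochberg, adjusted p under 0.05) in R 4.3.3. Data for MCH against vehicle were simulated with 14803 genes, 200 of them changed. The raised genes had a median log2 fold change of 0.998 in the fit without a block. That fit recovered 145 of the changed genes (0 false calls). The block by side recovered 178 (11 false) and the replicate block 176 (15 false). These changes are larger than those of the Ets genes, so recovery at the sizes found here was not tested. CPM carry no length scaling. Members and lists were chosen with earlier results of these data known. The deviations of same-numbered wells from their group means correlated at 0.445 to 0.545. Wells of the other number on the same side did so at 0.475 to 0.521. Replicate numbers thus paired the wells no more closely than the sides did. Alternatives were DESeq2 1.42.0, limma 3.58.1, other scaling, no filter, blocks, a length offset and leaving out each well. Shares were compared with SciPy 1.17.1. Named are the 8 members, the DE genes of each list or else its lowest and highest, the 5 genes most like *Erf* and the 3 most opposed, transcripts with at least 5% of TPM, *Srf* and *Mapk3* (1 further gene of the rule is not reported here); marker lists are given as sums, and *Fgfr3* and single markers were named after their values were seen. Proteins were not used here.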

Additional observations from a re-analysis of the deposited data

Results flagged for a closer look

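In MCH replicate 1, *Fos* was read at 36.9 CPM, against 31.9 to 32.6 CPM in the remaining 3 wells of the group, a gap of 0.852 of the group's range that is past Dixon's critical value for 4 samples. It was the single such well in 98 groups of 4 examined, and chance gives about 1 in 20. No other value of the Ets genes or of the named genes stood apart in this way, and the interaction of MCH with side passed the threshold for 0 of the 7 Ets genes tested.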

How the results depend on the processing

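Genes DE numbered 35, and 157 with DESeq2, 596 with the replicate block, 668 with the block by side, 7 with the length offset and 4 to 29 without each well in turn. The 0 of 7 Ets genes became 2 (*Etv3* and *Etv5*) with the replicate block and with the block by side, and stayed 0 in every other fit run. No transcript was DE, against 6 with the block by side and 0 to 1 without each well. The 4 interaction genes became 266 with no filter on low counts. The log2 fold change of *Erf* was -0.266 with the length offset and kept its sign in every alternative run. The sign turned for *Elk3* with limma voom (-0.0849), the replicate block (-0.0359) and the block by side (-0.0293), and for *Elk4* with the length offset (-0.203). Without each well in turn the value ran from -0.143 to 0.488 for *Etv4*, from -0.23 to 0.241 for *Elk3* and from -0.00388 to 0.11 for *Elk4*. *Gabpa* was at -0.00779 with the length offset. By share of estimated counts the main transcript of *Etv5* moved by -0.00408 and that of *Elk4* by -2.7 percentage points. Without each well the changes ran from -0.19 to 0.418 points for *Etv5*, from -6.77 to 1.9 for *Etv1*, from -13.8 to 4.36 for *Elk3* and from -0.705 to 8.51 for *Elk4*. Without transcripts under 1000 bases the mean TPM was 28.7 for *Erf* and 9.61 for *Elk4*. The cause of these differences was not tested. *Etv4* and *Elk3* had 80 to 305 reads per well, and the SE of their fold changes went from 0.52 and 0.38 without a block to 0.11 and 0.12 with the block by side.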
